A study of Homo sapiens and Mus musculus with 13 samples.

Results

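The genes described here are the hormone receptors and luminal transcription factors of the mammary gland, chosen by symbol as ESR1, PGR, PRLR, FOXA1, GATA3, XBP1, STAT5A and STAT5B in human cells and as Esr1, Pgr, Prlr, Foxa1, Gata3, Xbp1, Stat5a and Stat5b in mouse tumors. All 8 were found in each table, among 55228 mouse symbols and 24523 human symbols. FPKM values count sequenced fragments per length of transcript and size of library. A mean of at least 0.5 FPKM was reached by 7 of 8 members in the tumors and by 4 of 8 in the cell lines. Pgr in tumors and ESR1, PGR, PRLR and FOXA1 in cell lines were below that level.

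Luminal cells line the inner layer of the mammary duct, and a subset of them senses hormones. ESR1 is estrogen receptor alpha, FOXA1 is the pioneer factor that opens chromatin for it, and PGR, the progesterone receptor, is one of its classic targets. PRLR, the prolactin receptor, signals through the kinase JAK2 to STAT5A and STAT5B, which drive alveolar development and milk protein genes. GATA3 maintains luminal fate, and XBP1 is a transcription factor of the unfolded protein response that secretory cells need. Tumors driven by the polyomavirus middle T oncogene (PyVT) are known to lose hormone receptors as they progress, and MDA-MB-231 is a triple-negative line, without estrogen and progesterone receptors.

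The study compared TRIM11, a ubiquitin ligase, and KDM5C, a histone demethylase, in breast cancer. The 6 tumors came from female mice, 3 months old, that carried PyVT under the MMTV promoter, which is active in mammary epithelium. By the paper, the Trim11+/- mice were made in C57BL/6N. After at least 3 generations of backcrossing they were mated with MMTV-PyVT mice of the FVB/N strain. Of the tumors, 3 were Trim11+/+ and 3 were Trim11+/-, with exons 2 to 6 of Trim11 removed from 1 allele by CRISPR/Cas9. The 7 MDA-MB-231 lines, from a human breast cancer, had received Cas9 and guides by lentivirus with puromycin selection: 1 Control line with a guide against GFP, 2 TRIM11-KD lines (guides 1 and 2), 2 KDM5C-KD lines (guides 1 and 2) and 2 double knockdown lines (DKD). Both DKD lines shared KDM5C guide 2, and DKD 1 and DKD 2 carried TRIM11 guide 1 and 2. Each line gave 1 library, so p-values between lines measure only the spread between these samples, and the labels do not say whether each tumor came from a different mouse.

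Library totals recovered from the tumor values were 8793199 to 11117125 reads, and the depth of the cell line libraries is unknown. The epithelial genes Krt8 (335 to 532 FPKM), Krt18 (345 to 590) and Epcam (408 to 493) were high in all 6 tumors. The cell lines had 1038 to 1309 FPKM of VIM and 0.615 to 1.98 of CDH1, and also the keratins KRT8 (375 to 622 FPKM), KRT18 (296 to 440) and KRT19 (194 to 319). Trim11 in tumors was 35.8, 36.3 and 39.2 FPKM in Trim11+/+ tumors 1 to 3 and 24.0, 22.8 and 22.9 in Trim11+/- tumors 1 to 3. The ratio of means was 0.626, the groups did not overlap, and the limma adjusted p was 0.199. KDM5C was 30.3 FPKM in Control, 20.6 and 21.4 in KDM5C-KD, 18.8 and 22.7 in DKD, and 29.8 and 28.4 in TRIM11-KD. TRIM11 mRNA was 12.6 FPKM in Control, 13.4 in the library labelled TRIM11-KD 1, 10.6 in TRIM11-KD 2, 16.1 in the library labelled DKD 1 and 9.38 in DKD 2. In the libraries labelled TRIM11-KD 1 and DKD 1 the TRIM11 mRNA therefore was above Control, although the label names a knockdown. The paper checked its knockdown lines by western blot, at the level of protein, which these mRNA values do not measure. Directions drawn from these libraries refer to their labels. KDM5C-KD 1 and 2 had 13.6 and 14.2 FPKM of TRIM11.

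Sequence decides what a gene-level value means for 3 of the members. STAT5A and STAT5B are neighbors on human chromosome 17 and mouse chromosome 11 and share long identical coding runs. A read of 150 bases inside such a run cannot by itself be assigned to either gene, although the reads were paired and the mate may lie outside the run. The first 150 bases of the longest run, the length of 1 read, are shown for each species once, since both genes carry the same letters. The human run has 429 bases, from coding position 564 to 992 of both genes, and its shown part lies in exons within hg19 chr17:40451782-40452179 (STAT5A, plus strand) and chr17:40371450-40371847 (STAT5B, minus strand). The mouse run has 324 bases, from coding position 571 to 894, and its shown part lies in exons within mm10 chr11:100874023-100874377 (Stat5a, plus strand) and chr11:100798347-100798701 (Stat5b, minus strand).
STAT5A and STAT5B, human: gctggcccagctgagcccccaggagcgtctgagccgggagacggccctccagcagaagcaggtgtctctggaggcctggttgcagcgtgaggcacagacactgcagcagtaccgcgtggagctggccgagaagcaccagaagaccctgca
Stat5a and Stat5b, mouse: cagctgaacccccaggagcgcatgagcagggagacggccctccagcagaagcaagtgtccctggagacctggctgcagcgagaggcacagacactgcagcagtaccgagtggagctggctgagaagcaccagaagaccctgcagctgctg
Of all 150-base windows of the spliced transcript, 6.74% in STAT5A, 5.68% in STAT5B, 5.06% in Stat5a and 3.56% in Stat5b also occurred in the partner. The human exons also overlap by 415 bases on opposite strands. The libraries were not strand-specific, so a read there could not by itself be told apart either.

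XBP1 is shown for its 26-base stretch that the kinase and nuclease IRE1 (ERN1) cuts out of the mRNA in the cytoplasm. Without the stretch the reading frame shifts and the active transcription factor is made. In the hg19 annotation the transcript with a coding length of 783 bases has the stretch and the one with 1128 bases lacks it. The capitals mark these 26 bases, at hg19 chr22:29192116-29192141 (minus strand) and mm10 chr11:5524278-5524303 (plus strand), with 30 bases on each side in lower case.
XBP1, human: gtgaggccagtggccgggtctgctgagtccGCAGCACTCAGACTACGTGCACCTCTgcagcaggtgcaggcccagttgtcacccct
Xbp1, mouse: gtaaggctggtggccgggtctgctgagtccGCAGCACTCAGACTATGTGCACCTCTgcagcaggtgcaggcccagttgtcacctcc
In the stretch, 1 of 26 bases differed between the species. The FPKM of XBP1 adds both forms, so the values below are total mRNA and say nothing of how much was cut.

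In tumors, the levels per length ran from Xbp1 at the top through Gata3, Stat5b, Stat5a, Prlr, Foxa1 and Esr1 to Pgr. Each neighbor in this order was above the next in 6 of 6 tumors, except Foxa1 above Esr1, which held in 4 of 6. Xbp1 was above 99.8% of the 17328 analysed genes, Gata3 above 94.2%, Stat5b above 83.6%, Stat5a above 76.4%, Prlr above 56.2%, Foxa1 above 35.2% and Esr1 above 13.2%. The plot of the members by tumor shows the scale of each gene.

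**Figure D1:**
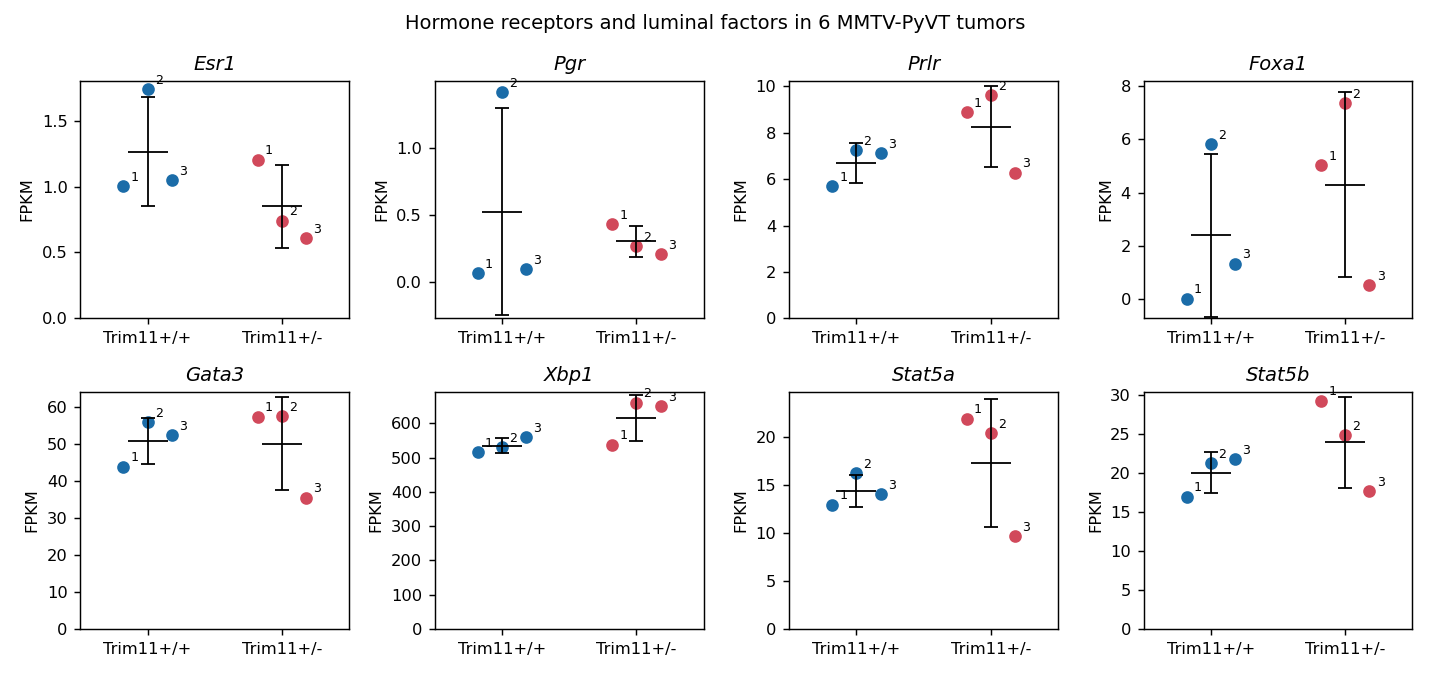
Expression of the 8 members (FPKM, linear axis, 1 panel per gene) in 3 Trim11+/+ and 3 Trim11+/- tumors. Points are tumors with their replicate number, the horizontal line is the mean and the bar is the SD (n = 3). The genotypes overlap in all 8 panels, and Pgr is high only in Trim11+/+ 2, at 1.42 FPKM.

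Esr1, at mm10 chr10:4611593-5005614, was 1.0, 1.74 and 1.05 FPKM in Trim11+/+ tumors 1 to 3 and 1.20, 0.741 and 0.606 in Trim11+/- tumors 1 to 3. These values rest on 89 to 242 reads. The highest tumor was Trim11+/+ 2 and the lowest 2 were Trim11+/-, but Trim11+/- 1 lay inside the Trim11+/+ range. The means were 1.27 ± 0.413 and 0.851 ± 0.314 (SD, n = 3 each), a log2(FPKM + 1) difference of -0.29 (95% interval -0.79 to 0.21, limma adjusted p = 0.813). The difference was -0.14 without Trim11+/+ 2, -0.19 without Trim11+/- 3 and -0.42 without Trim11+/- 1. In bulk tumors, fewer hormone-sensing cells and less RNA per cell cannot be told apart, here and for every gene below.

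Pgr, at mm10 chr9:8899833-8968611, was 0.0643, 1.42 and 0.0933 FPKM in the Trim11+/+ tumors and 0.432, 0.266 and 0.207 in the Trim11+/- tumors. Trim11+/+ 2 had 123 reads, Trim11+/+ 1 and 3 had 6 and 8 reads, and the Trim11+/- tumors had 41, 20 and 19. The exact Poisson 95% interval was 1.18 to 1.69 FPKM in Trim11+/+ 2 and 0.0236 to 0.140 in Trim11+/+ 1, and these intervals cover counting error only. The 3 Trim11+/- tumors thus lay between 1 high and 2 low Trim11+/+ tumors. The means were 0.524 ± 0.772 and 0.302 ± 0.116, a ratio of 0.575, and without Trim11+/+ 2 the ratio was 3.83. Pgr missed the filter and had a limma adjusted p of 0.938 among all genes with any mean above 0.

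Prlr, at mm10 chr15:10177238-10349180, was the best expressed of the receptors. It was 5.69, 7.24 and 7.12 FPKM in the Trim11+/+ tumors and 8.90, 9.62 and 6.29 in the Trim11+/- tumors. The highest 2 were Trim11+/- tumors, and Trim11+/- 3 lay inside the Trim11+/+ range. The means were 6.68 ± 0.865 and 8.27 ± 1.75, with a log2 difference of 0.26 (95% interval -0.16 to 0.68, limma adjusted p = 0.802). Leaving out Trim11+/- 2 gave 0.15, Trim11+/+ 1 gave 0.16 and Trim11+/- 3 gave 0.42.

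Foxa1, at mm10 chr12:57540628-57546916, varied most among tumors. It was 0.0275, 5.82 and 1.35 FPKM in the Trim11+/+ tumors and 5.03, 7.35 and 0.531 in the Trim11+/- tumors, or 1, 197 and 45 reads against 186, 215 and 19. The single read of Trim11+/+ 1 gives an interval of 0.000696 to 0.153 FPKM, and Trim11+/- 3, the next lowest, had 0.320 to 0.830. High and low tumors occurred in both genotypes. The means were 2.40 ± 3.04 and 4.30 ± 3.47, and the log2 difference of 0.74 had a 95% interval of -1.31 to 2.79 (limma adjusted p = 0.879). Left out in turn, Trim11+/+ 1 gave 0.09, Trim11+/- 2 gave 0.26, Trim11+/- 1 gave 0.49, Trim11+/+ 2 gave 1.45 and Trim11+/- 3 gave 1.48. The ratio of means, 1.79, was 6.26 without Trim11+/+ 2, 2.58 without Trim11+/- 3 and 1.16 without Trim11+/- 2.

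Gata3, at mm10 chr2:9857078-9890034, was far more even. It was 43.9, 55.9 and 52.4 FPKM in the Trim11+/+ tumors and 57.3, 57.5 and 35.5 in the Trim11+/- tumors. The lowest and the highest value were both Trim11+/-. The means, 50.7 ± 6.18 and 50.1 ± 12.6, gave a ratio of 0.988 and a log2 difference of -0.04 (95% interval -0.54 to 0.46, limma adjusted p = 0.977), which turned to 0.029 without Trim11+/+ 2 and to 0.18 without Trim11+/- 3. Gata3 shares 155 exonic bases with the antisense gene Gm13256, and reads there could not be separated by strand.

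Xbp1, at mm10 chr11:5520659-5525893, was 515, 531 and 559 FPKM in the Trim11+/+ tumors and 538, 659 and 650 in the Trim11+/- tumors. Trim11+/- 2 and 3 were above every Trim11+/+ tumor, and Trim11+/- 1 was not. The means were 535 ± 22.5 and 616 ± 67.6, with a log2 difference of 0.20 (95% interval -0.12 to 0.51, limma adjusted p = 0.797).

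Stat5a, at mm10 chr11:100859351-100885169, was 12.9, 16.2 and 14.0 FPKM in the Trim11+/+ tumors and 21.9, 20.4 and 9.67 in the Trim11+/- tumors. Stat5b, at mm10 chr11:100780731-100850724, was 17.0, 21.3 and 21.7 FPKM in the Trim11+/+ tumors and 29.2, 24.8 and 17.7 in the Trim11+/- tumors. For both genes Trim11+/- 1 and 2 were the highest tumors. Trim11+/- 3 was the lowest of all for Stat5a and the second lowest for Stat5b. The log2 differences were 0.18 (95% interval -0.52 to 0.88, limma adjusted p = 0.922) for Stat5a and 0.23 (-0.25 to 0.70, adjusted p = 0.840) for Stat5b. The Stat5a difference was -0.020 without Trim11+/- 1, 0.029 without Trim11+/- 2, 0.11 without Trim11+/+ 1 and 0.53 without Trim11+/- 3. The Stat5b difference was 0.07 without Trim11+/- 1, 0.12 without Trim11+/+ 1 and 0.42 without Trim11+/- 3. The ratio of Stat5b to Stat5a stayed above 1 in every tumor, at 1.22 to 1.83 with a mean of 1.43.

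None of the 7 analysed members passed an adjusted p of 0.05 in limma, beside 0.00577% of all analysed genes. None met the rule of a ratio of at least 1.5 with an unadjusted p under 0.05, which 3.61% of genes met, 1.74% higher and 1.87% lower in Trim11+/-. The count at an unadjusted p under 0.05 was also 0, beside 6.94% of genes in limma and 6.74% in limma voom on recovered reads. In 0 of 7 members did the genotypes separate without overlap, beside 13.4% of all genes, 6.6% with all Trim11+/- tumors above and 6.78% with all below. The two-sided exact permutation p of the 8 members was 0.2 or more, and 3 tumors against 3 cannot give less than 0.1. The median log2 difference of the 7 members was 0.20, and that of all analysed genes was -0.0048. Without Trim11+/- 3, 3 members (Prlr, Stat5a and Stat5b) had an unadjusted limma p under 0.05, beside 8.67% of genes in that fit, and their adjusted p was 0.425 or more.

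**Figure D2:**
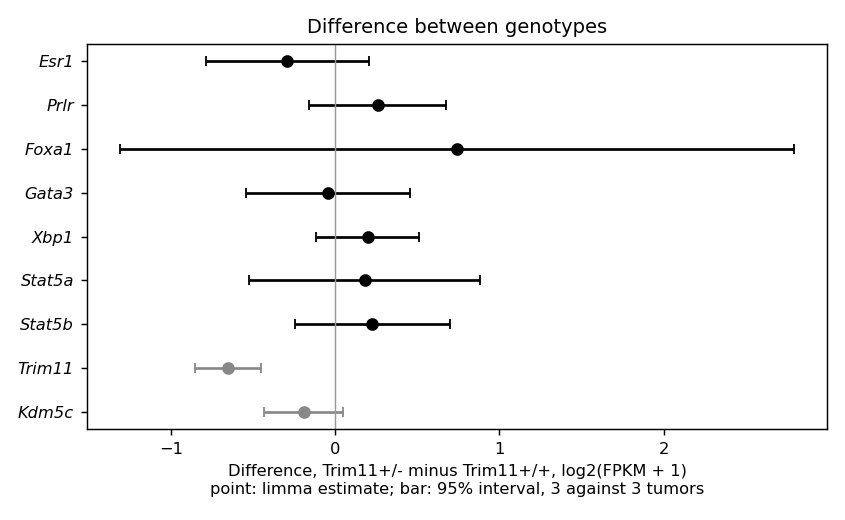
Difference of Trim11+/- minus Trim11+/+ tumors on the log2(FPKM + 1) scale for the 7 analysed members (black) and the targeted genes Trim11 and Kdm5c (gray). Points are limma estimates and bars 95% intervals (3 against 3 tumors). Every member's interval includes 0, and that of Foxa1 is the widest, from -1.31 to 2.79.

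Of the 6 genes in the list of hormone-sensing cell signals, 5 were highest in Trim11+/+ 2 or in Trim11+/- 1, and Prom1 was not. Areg, the growth factor that estrogen induces in the duct, was 22.7 FPKM in Trim11+/+ 2 and 0.753 to 1.59 in the other tumors. Cited1, a coactivator marking hormone-sensing luminal cells, was 0.0522, 8.86 and 0.966 FPKM in the Trim11+/+ tumors and 4.87, 3.31 and 0.637 in the Trim11+/- tumors. The same 3 tumors were highest for Cited1 and Foxa1. Other genes of this list, chosen after their values were seen, were Tnfsf11 (RANKL), a signal that progesterone induces, and Calca, a calcitonin peptide gene. Tnfsf11 was 4.14 FPKM in Trim11+/+ 2 and 0 to 0.356 in the other tumors, and Calca was 5.67 against 0 to 0.135. Wnt4, another progesterone target chosen in the same way, was 2.04 FPKM in Trim11+/+ 2 and 2.32 in Trim11+/- 1, and the other tumors had 0.0218 to 0.786. Prom1, a surface marker of hormone-sensing luminal cells, ran the other way, at 14.2, 6.83 and 7.69 FPKM in the Trim11+/+ tumors and 9.54, 11.6 and 19.0 in the Trim11+/- tumors. It was lowest in Trim11+/+ 2 and highest in Trim11+/- 3, where Foxa1 was low. Of these 6 genes, none met the fold and p rule, and the genotypes overlapped for each.

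Markers of other cells also differed between these tumors. The sum of 6 adipocyte markers was 15.7, 134 and 30.2 FPKM in the Trim11+/+ tumors and 91.8, 51.8 and 9.67 in the Trim11+/- tumors, so the highest 3 were those with the highest Foxa1. Csn2, beta-casein, was 0.674, 63.8 and 11.9 FPKM in the Trim11+/+ tumors and 55.8, 14.3 and 3.53 in the Trim11+/- tumors, with the same 3 tumors highest. This did not hold for the milk protein list as a whole. Its sum was 1707, 3704 and 3588 FPKM in the Trim11+/+ tumors and 2625, 2607 and 1390 in the Trim11+/- tumors. Lalba, a more abundant milk protein gene, was highest in Trim11+/+ 3, at 1033 FPKM, where Foxa1 was 1.35. The sum of 7 T cell markers was 5.87 FPKM in Trim11+/+ 2 and 1.05 to 2.84 in the others. Sums of 5 skeletal muscle markers ran from 1.78 to 272 FPKM and were lowest in Trim11+/- 2 and 3. Fibroblast sums were 141 to 354 FPKM, macrophage sums 232 to 398, endothelial sums 9.98 to 21.6, and B and plasma cell sums 24.7 to 86.4. The part of these cells in the values of the members was not tested.

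**Figure D3:**
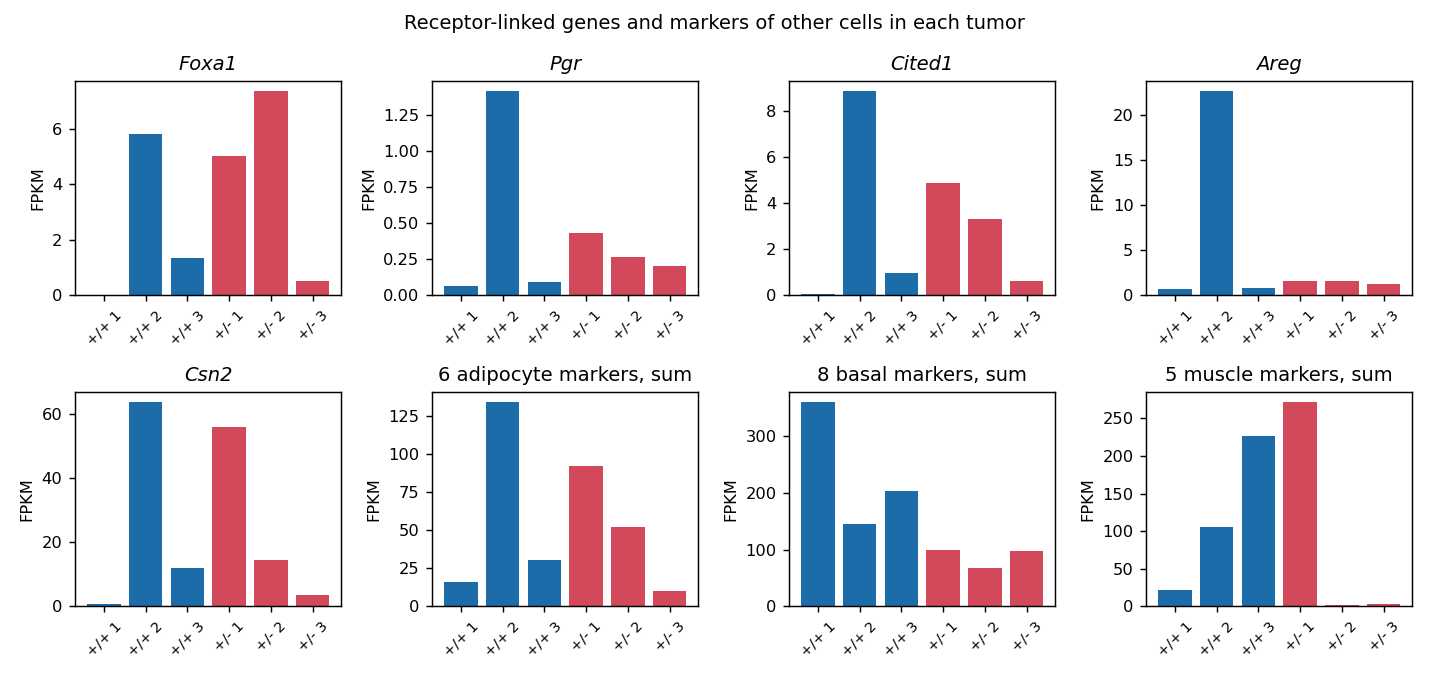
Expression in each of the 6 tumors (FPKM, linear axes from 0, 1 bar per tumor) of Foxa1, Pgr, Cited1, Areg and Csn2, and summed FPKM of adipocyte, basal and skeletal muscle markers. Trim11+/+ 2 is the highest tumor for Pgr, Cited1, Areg, Csn2 and the adipocyte sum, and the 3 tumors high in Foxa1 are also those with the 3 highest adipocyte sums.

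Genes with the profile most like a member were sought for those whose range over the 6 tumors was at least 1 on the log2(FPKM + 1) scale, by the root mean square difference between mean-centered profiles. These were Pgr (range 1.18), Foxa1 (3.02) and Stat5a (1.1). Nearest to Foxa1 among 11738 genes were Cyp2e1 (0.401), Bahcc1 (0.402) and Atp6v1b1 (0.428). Cyp2e1 encodes a cytochrome P450 and was 0.848, 6.88 and 3.32 FPKM in the Trim11+/+ tumors and 16.2, 10.8 and 1.47 in the Trim11+/- tumors. Nearest to Pgr among 11739 genes were Nfkbia (0.136), an inhibitor of NF-kappa-B, Mmd (0.158) and Nkg7 (0.159), a gene of cytotoxic lymphocytes. Pgr and these genes were all highest in Trim11+/+ 2. Pgr ran from 0.0643 to 1.42 FPKM and Nfkbia from 29.6 to 60.6, so their likeness holds only on the log2(FPKM + 1) scale, which compresses low genes. Nearest to Stat5a were Ccdc92 (0.0570), Prr15l (0.0630) and Pnpla2 (0.0766), a lipase of fat stores. With 6 tumors as points, this is a description of likeness only.

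Genes around the receptors were described by lists. The shares of all analysed genes to set beside the list counts were 3.61% by the fold and p rule and 13.4% without overlap. Of 20 other nuclear hormone receptors, 15 were analysed, and 1 met the fold and p rule. This was Nr3c2, the mineralocorticoid receptor, at 3.01 ± 0.850 FPKM in Trim11+/+ and 1.38 ± 0.931 in Trim11+/- tumors (log2 difference -0.80, limma adjusted p = 0.698). Thrb, a thyroid hormone receptor, was 1.55 ± 0.263 and 2.24 ± 0.171 FPKM without overlap, and Esrrg, an orphan receptor, was 2.81 ± 0.571 and 2.08 ± 0.637 with overlap. The list had 2 genes with all Trim11+/- tumors above and 1 with all below, and its median difference was -0.07. Of 12 steroid receptor coregulators, none met the rule. Med1, the Mediator subunit that binds nuclear receptors, was 11.4 ± 0.882 and 15.5 ± 1.5 FPKM (log2 difference 0.40, limma adjusted p = 0.634), Phb2 was 60.8 and 51.4, and Ep300, an acetyltransferase, was 6.79 and 8.02. Med1 and Phb2 did not overlap between the genotypes, and the list median was 0.06.

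Of 13 analysed estrogen response genes, 2 met the fold and p rule, both lower in Trim11+/-. Igfbp4, which binds insulin-like growth factors, was 26.2 ± 4.43 and 14.9 ± 3.07 FPKM (log2 difference -0.78, limma adjusted p = 0.593). Ccnd1, cyclin D1, was 52.8 ± 16.9 and 33.5 ± 3.14 (log2 difference -0.60, adjusted p = 0.699). Neither gene overlapped between the genotypes. Tpd52l1 was higher in Trim11+/- tumors, at 41.2 ± 2.63 against 28.3 ± 10.3, with overlap. Tff1 and Tff3, trefoil factors of estrogen-responsive human tumors that were chosen after their values were seen, were listed at 0 in all 6 tumors. The list median was -0.11.

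The prolactin receptor signaling list had 15 analysed genes, and 2 met the rule, both lower in Trim11+/-. Cish, a feedback inhibitor that STAT5 induces, was 7.40, 9.16 and 4.25 FPKM in the Trim11+/+ tumors and 3.59, 2.62 and 4.16 in the Trim11+/- tumors (log2 difference -0.80, limma adjusted p = 0.673). The genotypes did not overlap for Cish, but little separated Trim11+/+ 3 from Trim11+/- 3. Bcl6, a repressor that binds STAT5 sites, was 5.57 ± 2.76 and 7.88 ± 0.886 with overlap. The list median was -0.01. Of 6 milk protein genes, none met the rule: Lalba was 739 ± 445 and 373 ± 217 FPKM, Csn2 25.5 ± 33.7 and 24.6 ± 27.6, and Csn1s2a 20.2 ± 30.1 and 21.3 ± 29.0, all with overlap. Milk protein sums were 1390 to 3704 FPKM, and their list median was 0.07.

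Of 20 genes for luminal keratins, adhesion and factors, 3 met the fold and p rule, all higher in Trim11+/-. Spdef, an ETS factor of luminal and secretory cells, was 1.63, 2.56 and 6.18 FPKM in the Trim11+/+ tumors and 13.7, 23.6 and 7.63 in the Trim11+/- tumors. Its groups did not overlap, and the log2 difference was 1.85 (standard error 0.49, limma adjusted p = 0.629). The other two, Mlph (21.1 and 33.4 FPKM) and Agr2 (0.299 and 0.965), were named after their values were seen. Agr2 is a secretory pathway disulfide isomerase. Krt19 was 170 ± 18.6 and 114 ± 85.4 FPKM and Tfap2b 10.4 ± 6.72 and 16.6 ± 0.628, both with overlap. The list had 4 genes with all Trim11+/- tumors above and 1 with all below, and its median was 0.08.

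The 22 genes of the list for XBP1 and the unfolded protein response had a median of -0.22, below 0 while Xbp1 itself was at 0.20. In 9 genes all Trim11+/- tumors were below all Trim11+/+ tumors and in 1 gene all were above. None met the fold rule, and 8 had an unadjusted limma p under 0.05, beside 6.94% of all analysed genes. Hspa5, the main chaperone of the endoplasmic reticulum, was 231, 294 and 283 FPKM in the Trim11+/+ tumors and 184, 181 and 195 in the Trim11+/- tumors (log2 difference -0.52, limma adjusted p = 0.594). Sdf2l1, a cofactor of that chaperone, was 51.6 ± 6.73 and 34.7 ± 0.865 FPKM (log2 difference -0.55, adjusted p = 0.582). Hyou1, another chaperone there, was 31.0 ± 2.69 and 21.1 ± 0.889 (log2 difference -0.53, adjusted p = 0.437). No gene of this list passed the adjusted test.

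Basal and myoepithelial markers, which define the outer layer of the duct, stood lower in the Trim11+/- tumors. Their sum was 361, 144 and 203 FPKM in Trim11+/+ tumors and 99.0, 67.8 and 97.8 in Trim11+/- tumors, without overlap. Of 8 genes, 5 met the fold and p rule, all lower, beside 1.87% of all analysed genes, and the list median was -0.93. Krt5 was 65.5 ± 37.8 and 14.3 ± 6.24 FPKM (log2 difference -2.05, limma adjusted p = 0.610). Oxtr, the oxytocin receptor, was 7.37 ± 3.24 and 2.76 ± 0.222. Acta2 was 65.4 ± 63.3 and 22.6 ± 5.11, with overlap. Mesenchymal markers had a median of -0.41, with 2 of 8 meeting the rule, among them Vim at 44.1 ± 4.40 and 24.6 ± 4.03 FPKM (limma adjusted p = 0.437). No gene of the basal, mesenchymal or luminal list passed the adjusted test in tumors. The part of the basal and mesenchymal markers in the values of the luminal and unfolded protein response lists was not tested.

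**Figure D4:**
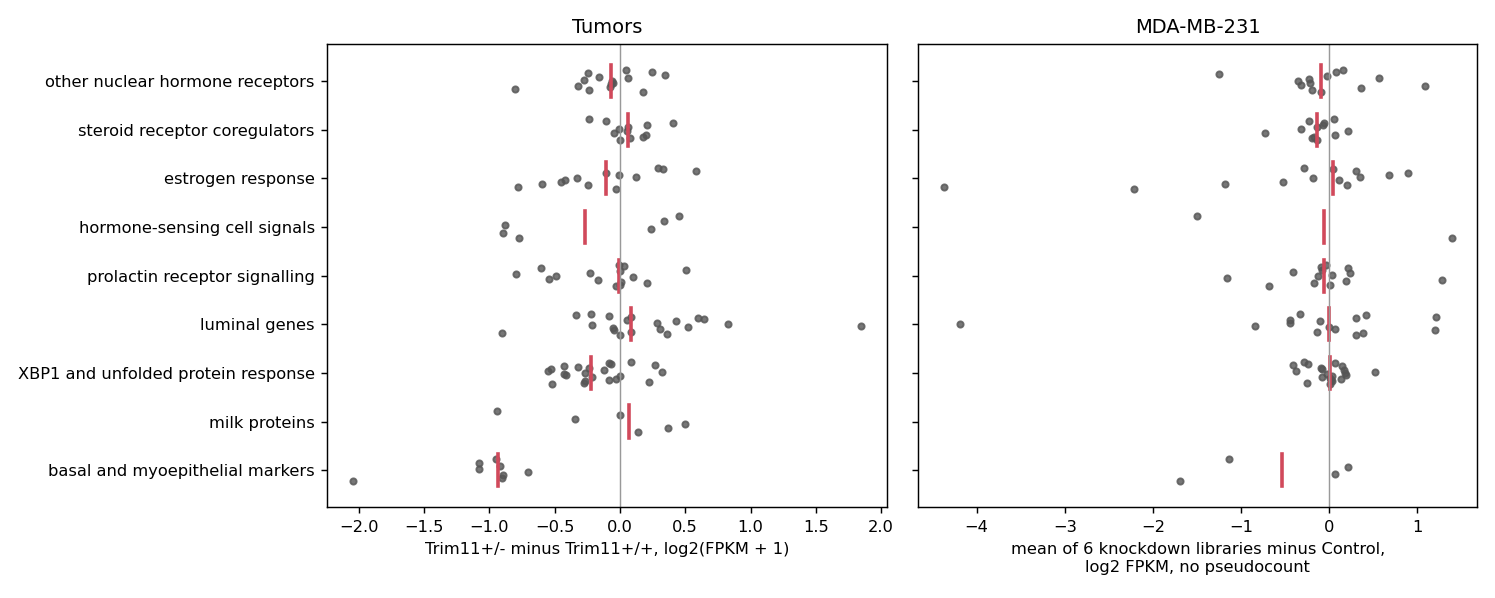
Differences of single genes (points) and list medians (red bars) for 9 lists, as Trim11+/- minus Trim11+/+ on the log2(FPKM + 1) scale in tumors (left) and as the mean log2 ratio of the 6 knockdown libraries to Control, with no pseudocount, in MDA-MB-231 (right). In tumors the basal list has the lowest median, at -0.93, followed by the hormone-sensing list at -0.27 and the unfolded protein response list at -0.22.

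In MDA-MB-231 PGR, ESR1 and FOXA1 were at or near 0. PGR (hg19 chr11:100900355-101000544) was listed at 0 in all 7 libraries. ESR1 (hg19 chr6:151977826-152450754) was listed at 0 in 5 libraries and was 0.0234 FPKM in the library labelled TRIM11-KD 1 and 0.0119 in KDM5C-KD 2. FOXA1 (hg19 chr14:38058757-38065264) was 0.0167 FPKM in Control, 0.0150 and 0 in TRIM11-KD 1 and 2, 0.0172 and 0.0228 in KDM5C-KD, and 0 in both DKD lines. PRLR (hg19 chr5:35048861-35230589) was 0.0875 FPKM in Control, 0.120 and 0.197 in TRIM11-KD, 0.0504 and 0 in KDM5C-KD, and 0.233 and 0.219 in DKD. Without read numbers for these libraries, it is not known how many fragments lie behind such values, so no fold is given.

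The other 4 members were expressed, in the order XBP1, STAT5B, STAT5A and GATA3. XBP1 above STAT5B and STAT5B above STAT5A held in 7 of 7 libraries, and STAT5A above GATA3 in 5 of 7, the exceptions being both DKD lines. XBP1 was above 87.3% of the 12636 analysed genes, STAT5B above 63.1%, STAT5A above 39.6% and GATA3 above 35.6%. The ratio of STAT5B to STAT5A was 1.90 to 3.19, with a mean of 2.40. The plot of the cell line libraries shows the 4 genes beside the targeted genes.

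**Figure D5:**
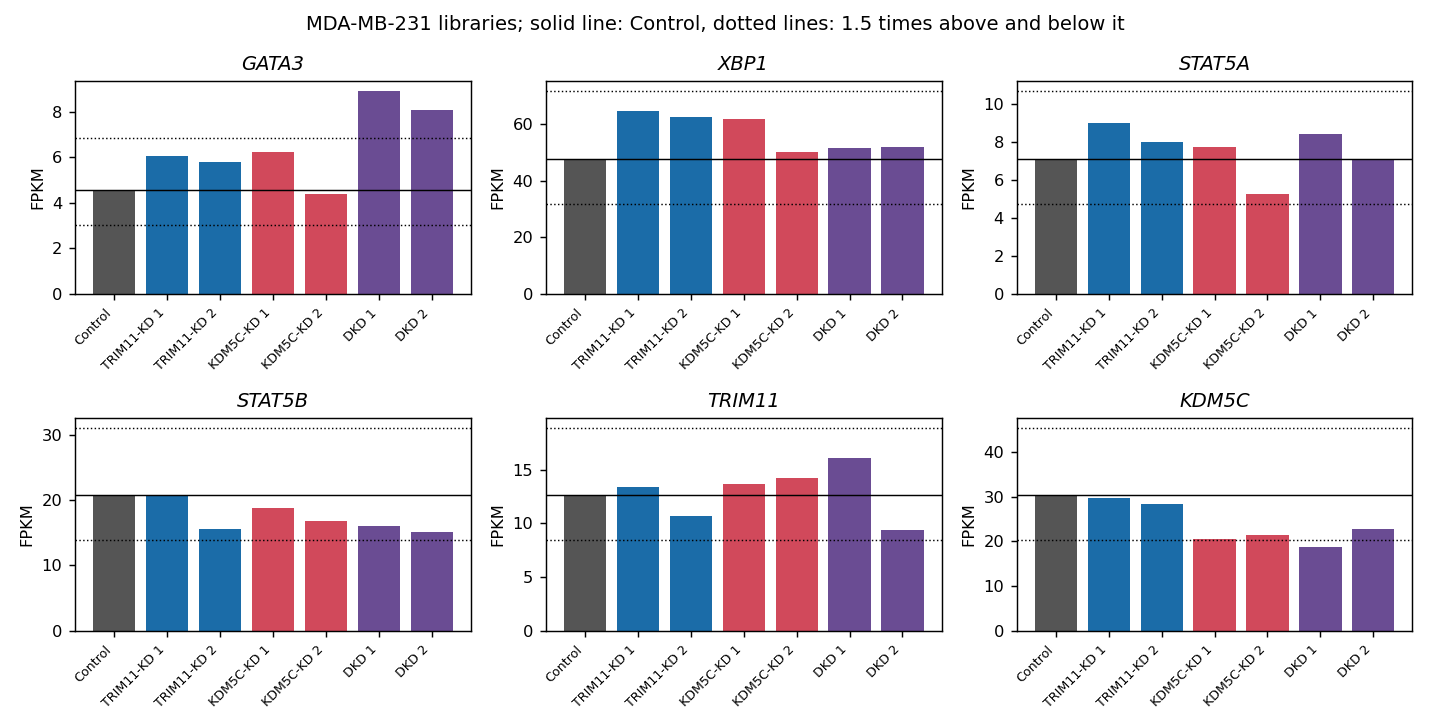
Expression (FPKM, linear axes from 0, 1 bar per library) of the 4 expressed members and of TRIM11 and KDM5C in 7 MDA-MB-231 libraries. The solid line is the Control value and the dotted lines are 1.5 times above and below it. Among the members only GATA3 in both DKD lines, at 8.92 and 8.07 FPKM, passes a dotted line.

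GATA3 (hg19 chr10:8087341-8117161) was 4.58 FPKM in Control, 6.08 and 5.81 in TRIM11-KD, 6.23 and 4.41 in KDM5C-KD, and 8.92 and 8.07 in DKD. Both DKD lines were above the other 5 libraries. The ratios to Control were 1.95 and 1.76 in DKD, 1.33 and 1.27 in TRIM11-KD, and 1.36 and 0.963 in KDM5C-KD. With 1 Control library these ratios have no replicate check.

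XBP1 (hg19 chr22:29190543-29196585) was 47.7 FPKM in Control, 64.5 and 62.4 in TRIM11-KD, 61.8 and 50.2 in KDM5C-KD, and 51.6 and 51.7 in DKD. All 6 knockdown libraries were above Control, by ratios of 1.05 to 1.35. The highest 2 were the TRIM11-KD lines, and the DKD lines, at 1.08 each, were close to Control.

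STAT5A (hg19 chr17:40439565-40463961) was 7.14 FPKM in Control, 9.03 and 8.02 in TRIM11-KD, 7.76 and 5.26 in KDM5C-KD, and 8.44 and 7.04 in DKD. Control lay within the range of the knockdown lines. STAT5B (hg19 chr17:40351194-40440651) was 20.7 FPKM in Control, 20.8 and 15.5 in TRIM11-KD, 18.8 and 16.8 in KDM5C-KD, and 16.0 and 15.1 in DKD. It was below Control in 5 of 6 knockdown libraries, the exception being the library labelled TRIM11-KD 1.

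A change against Control was called where the 2 lines of a knockdown lay on the same side of Control, each by a ratio of 1.5 or more. Of the 4 analysed members, 0 were changed in TRIM11-KD, 0 in KDM5C-KD and 1, GATA3, in DKD, where it was higher. Among all analysed genes, 3.25% were higher and 2.58% lower in TRIM11-KD, 5.22% and 3.97% in KDM5C-KD, and 5.71% and 4.87% in DKD. XBP1 was the 1 member with all 6 knockdown libraries above Control, beside 13.6% of all genes, and 0 members were below in all 6, beside 16.1%. Counts of 1 among 4 genes are too small to set against these shares. The median of the mean log2 ratio was 0.16 for the members and -0.02 for all genes. These comparisons share the 1 Control library.

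The knockdowns have 2 lines each, which carry different guides and are not replicates of 1 guide. Both DKD lines carried KDM5C guide 2, but KDM5C-KD held guide 1 (6.23 FPKM of GATA3) and guide 2 (4.41). The contrast of DKD with KDM5C-KD therefore mixes the KDM5C guides with the added TRIM11 guide. Between these groups, GATA3 was higher in DKD (8.49 ± 0.597 FPKM, SD, n = 2) than in KDM5C-KD (5.32 ± 1.29, n = 2). The ratio was 1.60 and the log2 difference was 0.60 (95% interval 0.16 to 1.04), with an unadjusted limma p of 0.0152 and an adjusted p of 0.387. It was the 1 member that met the rule of a ratio of at least 1.5 and an unadjusted p under 0.05, which 3.33% of genes met in that direction. Against TRIM11-KD (5.95 ± 0.193 FPKM, SD) the ratio was 1.43 and the log2 difference 0.45 (0.01 to 0.89), with an unadjusted limma p of 0.0459 and an adjusted p of 0.707. No member had an unadjusted p under 0.05 in that comparison with median-ratio scaling, with any mean above 0, or without any 1 of the TRIM11-KD or DKD libraries. Between KDM5C-KD and TRIM11-KD the GATA3 difference was -0.15 (limma adjusted p = 0.762). Without KDM5C-KD 2 the difference between DKD and KDM5C-KD was 0.39, with a limma adjusted p of 0.913, and without DKD 1 it was 0.54, with 0.502. In both of these fits its unadjusted p was above 0.05.

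The other members did not pass the test between knockdowns. XBP1 differences were -0.18 for KDM5C-KD minus TRIM11-KD, -0.11 for DKD minus KDM5C-KD and -0.29 for DKD minus TRIM11-KD, with limma adjusted p of 0.614, 0.765 and 0.719. For STAT5A they were -0.36, 0.23 and -0.13 (limma adjusted p = 0.558, 0.670 and 0.890). For STAT5B they were -0.02, -0.18 and -0.20 (limma adjusted p = 0.975, 0.687 and 0.784). The 3 comparisons share groups of lines. No member and no gene of the table passed an adjusted p of 0.05 in limma (0% of genes in each of the 3). At an unadjusted p under 0.05 the members were 0 of 4 between KDM5C-KD and TRIM11-KD (9.82% of genes), 1 of 4 between DKD and KDM5C-KD (11.7%) and 1 of 4 between DKD and TRIM11-KD (7.03%).

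Of 13 other nuclear hormone receptors analysed in the cell lines, 2 were above Control in all 6 knockdown libraries and 3 below. Among all analysed genes these shares were 13.6% and 16.1%, which also stand beside the list counts that follow. VDR, the vitamin D receptor, was 3.62 FPKM in Control and 5.03 to 12.9 in the knockdown libraries. NR2F1, an orphan receptor, was 2.65 FPKM in Control and 0.597 to 1.49 elsewhere. THRB was 1.44 FPKM in Control and 1.31 to 5.11 elsewhere, highest in KDM5C-KD 2. The list median was -0.09. Of 12 coregulators, 0 were above and 3 below in all 6, with a median of -0.14. CARM1, a coactivator, was 45.2 FPKM in Control and 34.8 to 42.7 elsewhere, and PELP1 was 15.9 and 7.34 to 17.6.

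Several estrogen response genes were expressed in these lines, where ESR1 was at or near 0. TFF1 was 13.3 FPKM in Control and 1.49 to 5.86 in the knockdown libraries. TFF3 was 9.96 FPKM in Control and 0.123 to 1.33 elsewhere. IGFBP4 was 1016 FPKM in Control and 352 to 677 elsewhere. All 3 were thus lower in each knockdown library than in the 1 Control. Of 13 analysed genes of this list, 2 were above and 5 below Control in all 6, beside 13.6% and 16.1% of all genes. In TRIM11-KD, KDM5C-KD and DKD, 1, 2 and 1 were higher by the rule for both lines, beside 3.25%, 5.22% and 5.71% of all genes. In the same order 3, 4 and 3 were lower, beside 2.58%, 3.97% and 4.87%. The list median was 0.04, above 0 while these 3 genes were far below. AREG, the 1 named gene of the hormone-sensing list, was 6.08 FPKM in Control and 10.1 to 24.1 elsewhere. Of the 6 genes of that list 2 were analysed, 1 above and 1 below Control in all 6 libraries. The other analysed gene, CITED1, went the other way, with a mean log2 ratio of -1.50, and the list median was -0.05.

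Of 16 luminal genes analysed, 5 were above and 5 below Control in all 6 libraries, and the median was 0.0030. SPDEF was 30.3 FPKM in Control, 7.20 and 0.675 in TRIM11-KD, 3.17 and 1.07 in KDM5C-KD, and 3.80 and 0.339 in DKD. EPCAM, an epithelial adhesion molecule, was 4.03 FPKM in Control and 5.0 to 12.3 elsewhere, and CLDN3, a tight junction protein, was 1.88 and 2.74 to 8.16. Of 14 prolactin signaling genes, 1 was above and 3 below in all 6, with a median of -0.06. SOCS2, a feedback inhibitor that STAT5 induces, was 13.5 FPKM in Control and 2.59 to 11 elsewhere. JAK2, the kinase bound to the prolactin receptor, was 1.66 FPKM in Control and 0.812 to 1.59 elsewhere, and SOCS1 was 0.523 and 0.143 to 4.76.

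Of 21 genes of the XBP1 and unfolded protein response list, 2 were above and 2 below Control in all 6, with a median of 0.01. SDF2L1 was 17.3 FPKM in Control and 18.7 to 40.6 elsewhere, highest in KDM5C-KD 2. ERN1, the IRE1 enzyme that cuts the XBP1 stretch shown above, was 2.04 FPKM in Control, 2.11 and 2.05 in TRIM11-KD, 1.64 and 1.43 in KDM5C-KD, and 1.31 and 0.960 in DKD. SSR1, a translocon-associated protein, was 37.1 FPKM in Control and 23.9 to 33.3 elsewhere. Milk protein sums were 0 to 0.155 FPKM, and basal marker sums were 7.63 to 31.6, with 4 of 8 genes analysed.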

How the data were processed

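The members and gene lists were chosen with earlier results of these data known. RNA-Seq was made from poly(A) RNA of 6 mouse tumors and 7 MDA-MB-231 lines, with non-directional libraries and paired reads of 150 bp. By the methods of the study, reads were checked with FastQC, trimmed with Cutadapt, mapped with HISAT2 to mm10 or hg19 and summarized with Cufflinks. The authors deposited 1 table of FPKM values per species, with 1 column per library. ChIP-Seq was not analysed here.

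For 99.4% of the 53462 mouse symbols with 1 annotation entry, FPKM was a whole number of reads (within 0.01) over a length and a library total, which gave read numbers and library totals. Whether the Cufflinks step named in the methods gave these mouse values could not be checked. Human depth is unknown. Of entries sharing a symbol the one with the highest mean was kept, and 25 human symbols turned into dates were dropped. Genes averaging 0.5 FPKM or more were tested on log2(FPKM + 1), a scale that understates the change of low genes, with limma 3.58.1 (R 4.3.3, lmFit and eBayes with a trend, Benjamini-Hochberg adjustment) over all genes. Scripts were tested on simulated data. Python 3.11.15, numpy 2.4.6, pandas 2.3.3, scipy 1.17.1 and matplotlib 3.10.9 were used. Knockdowns were compared with the 1 Control by ratios of FPKM, with no pseudocount and no p.

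Named genes are the members, the targeted genes, per list up to 3 genes averaging 1 FPKM or more that had the largest difference, besides genes that define a tissue, and the 3 genes nearest to each member with a range of at least 1. Of these, 2 list genes are not reported here. Deviations of same-numbered tumors correlated at -0.37, 0.04 and -0.15, so tumor numbers did not pair samples. In TRIM11-KD and DKD the number is that of the TRIM11 guide, and these pairs correlated at 0.37. Same-numbered KDM5C-KD and DKD lines, which share a guide only for number 2, correlated at 0.27. With 2 lines per group the deviations mirror each other, so pairs 1 and 2 give the same value by construction. Alternatives were other pseudocounts, filters, scalings and folds, no trend, Control in the fit, a replicate block and each replicate left out. Limma voom on the recovered reads was added after the data were seen.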

Additional observations from a re-analysis of the deposited data

Results flagged for a closer look

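For GATA3 and XBP1, the ratio taken across KDM5C guide 2 lay on opposite sides of 1 in lines without and with a TRIM11 guide. The ratio of GATA3 FPKM was 0.963 for KDM5C-KD 2 to Control, 1.47 for DKD 1 to the library labelled TRIM11-KD 1 and 1.39 for DKD 2 to TRIM11-KD 2, so GATA3 was slightly lower without a TRIM11 guide and higher with either. For XBP1 the same ratios were 1.05, 0.800 and 0.829. For STAT5A and STAT5B every such ratio was below 1. Each ratio rests on 1 library against 1, the pairs were matched by guide, and the difference was not tested. The ratios without a TRIM11 guide, 0.963 and 1.05, were close to 1, so their side of 1 carries little weight. The share of all analysed genes that lie on opposite sides in this way was not counted.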

How the results depend on the processing

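Counts of members past a threshold in tumors and between knockdowns were 0 at an adjusted p of 0.05 under every alternative run. Against Control, 1 member was counted as changed in KDM5C-KD with any mean above 0 (PRLR), and in DKD 3 with any mean above 0 (PRLR, FOXA1 and GATA3) and 0 at a fold of 2. The size of the difference depended on the scale for the low genes in tumors. Foxa1 was 0.74 in the main fit, 1.49 with a pseudocount of 0.1 and 2.00 in limma voom on recovered reads. Esr1 was -0.29, -0.53 and -0.57 in the same order. The differences that turned sign did so when 1 library was left out. In tumors Gata3 ranged from -0.16 to 0.18 over the libraries left out, with 0.029 without Trim11+/+ 2 and 0.18 without Trim11+/- 3. Stat5a ranged from -0.020 (without Trim11+/- 1) to 0.53. For KDM5C-KD minus TRIM11-KD, GATA3 ranged from -0.36 to 0.059 (without KDM5C-KD 2), and STAT5B from -0.22 to 0.18 (without the library labelled TRIM11-KD 1), with 0.060 without KDM5C-KD 2. For DKD minus KDM5C-KD, XBP1 ranged from -0.25 to 0.039 (without KDM5C-KD 1) and STAT5A from -0.0079 (without KDM5C-KD 2) to 0.48. The cause was not tested. With a replicate block, 0 members were called, and the lowest adjusted p of a member was 0.975 in tumors and 0.311, 0.237 and 0.377 in the 3 knockdown comparisons. At an unadjusted p under 0.05 the block moved the members from 1 to 2 (GATA3 and XBP1) for DKD minus TRIM11-KD, beside 12.2% of genes. For KDM5C-KD minus TRIM11-KD it moved them from 0 to 1 (STAT5A), beside 15.6%. In KDM5C-KD the number is that of the KDM5C guide, so same-numbered KDM5C-KD and TRIM11-KD lines share no guide. Their deviations correlated at 0.09. The count of tumor genes meeting the fold and p rule was 625, and it was 970 with any mean above 0 and 325 at a fold of 2.

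Low values limit Pgr and Foxa1 in tumors, where 1 to 8 reads stand behind the lowest libraries, and ESR1, PGR, PRLR and FOXA1 in cell lines, whose depth is unknown.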
